A study of Homo sapiens with 6 samples.

Results

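The set holds 51 genes, of 62252 measured in K562 cells. They license, fire and copy from DNA replication origins, and 3 of them are E2F transcription factors. Members were matched by gene symbol to a list of replication genes, with no threshold on measured values, and were placed in 12 roles from the origin recognition complex to E2F. Each of the 51 was found under its GENCODE release 44 symbol. Levels are sums over all transcripts annotated to a gene. K562 is an erythroid leukemia line grown in suspension. Of 6 libraries, 3 came from cells held overnight in complete medium with 10 µM 21H7, a cell-permeable iron chelator (Chelator, n = 3), and 3 from cells given a matched volume of DMSO, the solvent (DMSO, n = 3). The libraries are biological replicates by the series' design text, and the labels do not say that they were separate cultures on separate days, so each p-value measures the spread between these libraries alone. RNA was selected for poly(A) tails and sequenced in pairs.

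The origin recognition complex marks origins and, with CDC6 and CDT1, loads the MCM helicase onto DNA before S phase, while geminin (GMNN) blocks CDT1 afterwards. The kinase CDC7 with its partner DBF4, CDC45 and the GINS complex then switch the helicase on, and polymerases, the PCNA clamp, its RFC loader and the single-strand binder RPA follow it. FEN1 and LIG1 finish the lagging strand, claspin and the TIMELESS-TIPIN pair steady the fork, CAF-1 and UHRF1 rebuild chromatin behind it, and E2F factors drive the transcription of many of these genes at the start of S phase.

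The libraries held 78615500 to 101094957 estimated counts, which is deep enough that every member had a mean normalized count of at least 1183 (POLE2) and at most 72050 (MCM7). Chelator and DMSO libraries separated on the leading principal component (46.7% of the variance), and DMSO replicate 2 stood apart from the other libraries on the next (16.2%). The difference between transcript length and effective length (over transcripts of at least 1000 bases with no count), which follows the length of the sequenced fragments, was 264.0 to 274.3 bases in DMSO and 218.4 to 230.7 bases in Chelator, with no overlap. All 10 erythroid and K562 markers were detected, among them GATA1 at a mean of 170.5 TPM in DMSO, while the B cell marker MS4A1 was listed at 0 in every library and CD2 of T cells at 0 in DMSO. Of 16 markers of other cell types, 14 could be tested, and 8 were higher and 2 lower in Chelator. The 2 lower ones were COL1A2 of fibroblasts and EPCAM of epithelial cells, each with a log2 fold change of -0.48. Some of the higher markers were present in DMSO as well (KRT18 at a mean of 332.3 TPM and CD3D at 12.8 TPM). Others were near absent in DMSO and higher in Chelator, among them PDGFRB of fibroblasts at means of 0.0056 and 1.78 TPM and CD3E of T cells at 0.12 and 0.48 TPM. The part of these markers in the members' results was not tested. In bulk RNA, fewer cells in S phase and less RNA per S-phase cell cannot be told apart.

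With overnight iron chelation replication genes moved in both directions, each by less than 2-fold in sums over all transcripts. At an adjusted p under 0.05 (DESeq2's Wald test, adjusted over all genes tested), 8 of the 51 members were higher in Chelator, 19 were lower and 24 did not pass. That is 15.7% higher and 37.3% lower, against 24.8% and 38.2% of the abundant genes defined below. The risers were E2F1, LIG1, RFC2, RPA3, ORC6, CDT1, CDC6 and RPA2. In these sums over all transcripts the fallers were led by DBF4, UHRF1, PCNA, GINS4 and POLE3, and the GINS4 fall was smaller with short transcripts left out. The median log2 fold change of the 51 members was -0.10, beside 0.016 over all 24542 genes with an adjusted p.

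These shares were read against the same calls over all genes. Of all genes, 19.5% were higher and 18.3% lower. Since well-measured genes pass more often, a background of the 8942 genes whose normalized counts averaged 1000 or more (the abundant genes) was added after the values were seen. Of these genes 24.8% were higher and 38.2% lower, with a median of -0.09. Among members 15.7% were higher and 37.3% lower, so the share that fell was near that of the abundant genes. No member passed the study's 2-fold limit (absolute log2 fold change above 1), which 10.8% of all genes and 4.91% of the abundant genes passed. The count of members past that limit was also 0 at an unadjusted p under 0.05 with DESeq2 and 0 with edgeR's quasi-likelihood test. The groups did not overlap in 32 members. Chelator was above every DMSO library in 8 members (15.7%, background 27.9% of the abundant genes) and below every one in 24 (47.1%, background 41.6%).

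The split between risers and fallers moved with the processing. It was 9 and 15 with TMM scaling (a trimmed mean of log ratios between libraries), 8 and 12 with edgeR's test and TMM scaling together, 6 and 28 without the transcript length offset, and 4 and 34 when libraries were centred on the mean log2 fold change, which moves the median of all genes from 0.016 to -0.142. Of the 27 members that passed, 15 kept their call in each of 9 alternatives and without each library in turn. The 15 were E2F1, LIG1 and ORC6 among the risers and ORC4, MCM4, MCM6, GINS4, DBF4, PRIM1, POLD2, POLE3, PCNA, CLSPN, CHAF1B and UHRF1 among the fallers. No member passed a test against a log2 fold change of 1, which is not among those 9. Without DMSO replicate 2, the counts were 8 higher and 19 lower.

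**Figure D1:**
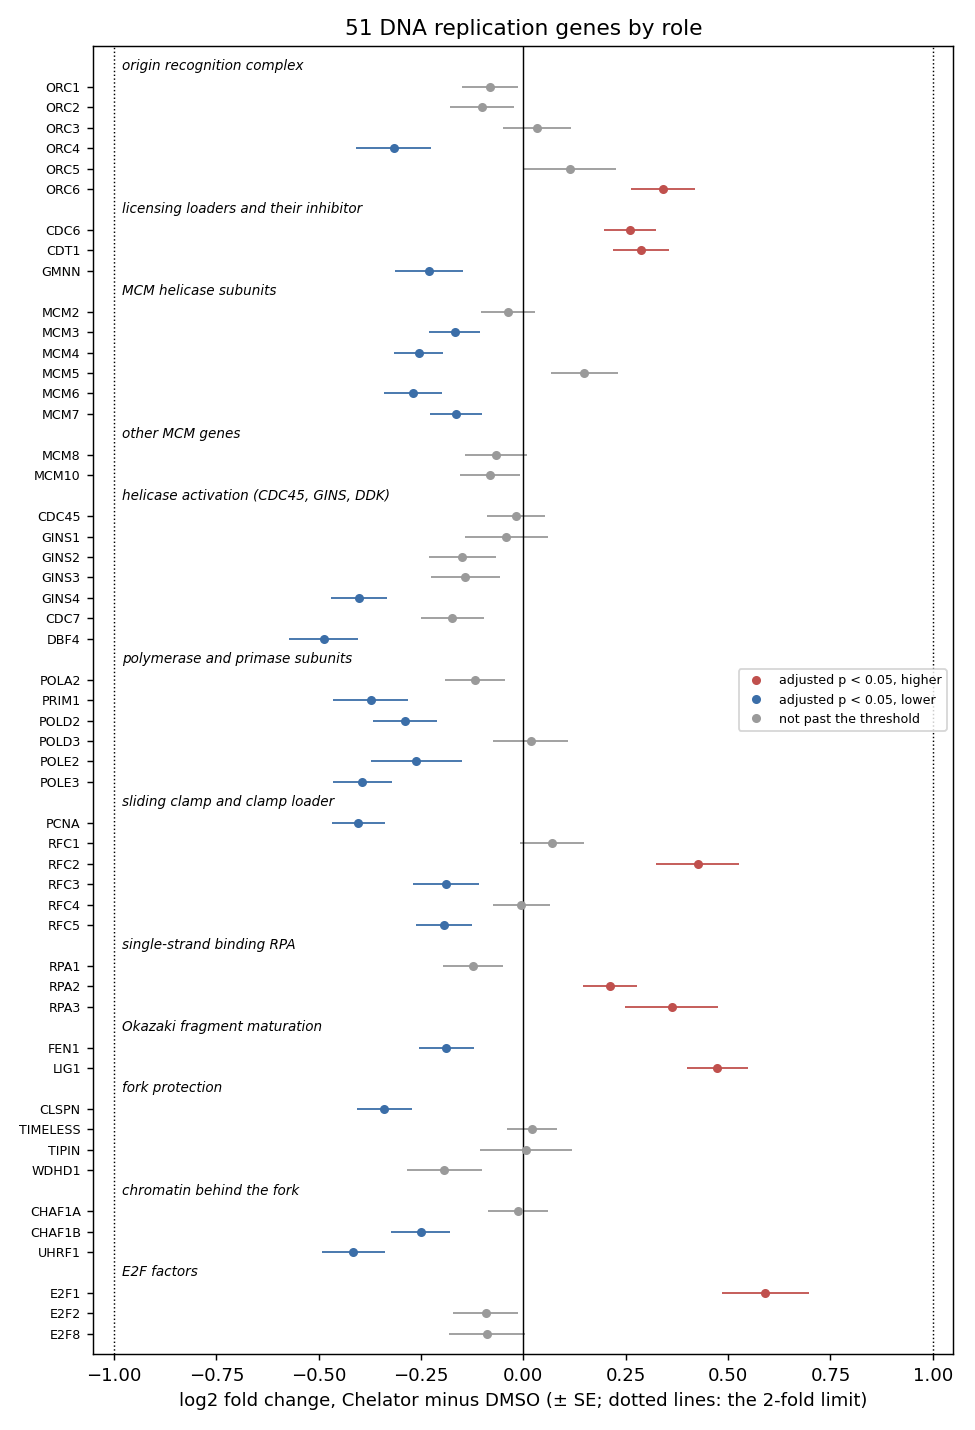
Log2 fold change (Chelator minus DMSO, x axis) with its standard error for each of the 51 members, grouped by role, with n = 3 libraries per group. Red points are higher and blue points lower at an adjusted p under 0.05, grey points did not pass, and no point reaches the dotted 2-fold limits.

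Promoter windows of the 2 largest risers and the 2 largest fallers with a RefSeq entry are printed because E2F elements are textbook control elements of many replication genes. CCAAT and CHR elements, the latter known from genes of G2 and mitosis, were searched beside them. Each window runs from 250 bases before to 30 bases after the transcription start (GRCh38.p14), 5′ to 3′ on the gene's strand, and capitals mark motif matches on either strand. E2F matches were TTTCCCGC, TTTGGCGC, TTTCGCGC and TTTGCCGC, CHR matches were TTTGAA and TTTAAA, and the third motif was CCAAT. The windows are chr20:33686356-33686635 on the minus strand, chr19:48170315-48170594 on the minus strand, chr7:87876243-87876522 on the plus strand and chr19:4909251-4909530 on the plus strand.
E2F1: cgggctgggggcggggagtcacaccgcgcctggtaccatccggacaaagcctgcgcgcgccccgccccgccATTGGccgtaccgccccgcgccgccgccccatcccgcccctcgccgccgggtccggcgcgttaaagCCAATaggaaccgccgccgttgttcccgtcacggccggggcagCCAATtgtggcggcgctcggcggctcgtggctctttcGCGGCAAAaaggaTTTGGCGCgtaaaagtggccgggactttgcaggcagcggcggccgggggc
LIG1: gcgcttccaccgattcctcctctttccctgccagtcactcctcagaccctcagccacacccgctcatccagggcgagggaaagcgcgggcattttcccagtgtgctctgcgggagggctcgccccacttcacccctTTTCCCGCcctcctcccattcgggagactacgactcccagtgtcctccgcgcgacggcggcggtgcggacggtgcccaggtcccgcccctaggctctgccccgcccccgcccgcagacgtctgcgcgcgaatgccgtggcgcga
DBF4: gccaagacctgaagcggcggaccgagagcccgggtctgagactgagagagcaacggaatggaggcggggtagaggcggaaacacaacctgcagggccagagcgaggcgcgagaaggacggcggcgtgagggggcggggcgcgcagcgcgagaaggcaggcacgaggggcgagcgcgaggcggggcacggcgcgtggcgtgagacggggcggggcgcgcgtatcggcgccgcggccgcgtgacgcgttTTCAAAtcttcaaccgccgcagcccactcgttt
UHRF1: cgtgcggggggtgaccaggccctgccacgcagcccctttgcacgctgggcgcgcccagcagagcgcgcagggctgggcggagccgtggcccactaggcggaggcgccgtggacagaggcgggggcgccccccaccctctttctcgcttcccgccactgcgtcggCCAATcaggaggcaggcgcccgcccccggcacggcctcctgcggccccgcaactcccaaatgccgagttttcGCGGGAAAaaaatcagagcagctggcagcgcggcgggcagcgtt

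E2F1 carried 2 E2F matches and 3 CCAAT matches, LIG1 1 E2F match, UHRF1 1 E2F match and 1 CCAAT match, and DBF4 1 CHR match across its start. Both risers and 1 of the fallers thus held E2F letters in this window. Of the 51 members, 44 had 57 RefSeq windows. E2F letters were in 40.4% of those 57 windows and in 3.14% of all 35116 windows, CCAAT in 54.4% against 33.6%, and CHR in 5.26% against 23.2%. Among the 22 members with an E2F match, 4 were higher and 9 lower with a median log2 fold change of -0.15, and among the 22 without one, 2 were higher and 8 lower with a median of -0.09. Members with and without these letters thus both included risers and fallers. A match is a description of letters and not of binding.

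In sums over all transcripts the 3 E2F factors held the largest rise in the set. E2F1 (chromosome 20, 33675477 to 33686385, GRCh38), an activator of the family, had normalized counts of 2434, 2271 and 2541 in DMSO and 3137, 3707 and 4070 in Chelator. All Chelator libraries lay above all DMSO libraries, and the Chelator libraries spread more widely. The log2 fold change was 0.59 (SE 0.11, adjusted p = 1.97e-07), a rise of 50.6%. E2F2, another activator, and E2F8, an atypical repressor of the family, had log2 fold changes of -0.09 each and did not pass. Per length, E2F1 stood at 11.2 ± 0.57 TPM (SD, n = 3) in DMSO and 17.3 ± 2.54 TPM in Chelator, while E2F2 stood at 12.5 ± 1.79 and 11.9 ± 0.63 TPM.

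Among the 6 subunits of the origin recognition complex, 1 rose and 1 fell. ORC6 (chromosome 16, 46689643 to 46698394), its smallest subunit, had normalized counts of 4431, 3903 and 4270 in DMSO and 5285, 5347 and 5337 in Chelator. The groups did not overlap, and the log2 fold change was 0.34 (SE 0.08, adjusted p = 5.13e-05). ORC4, an ATPase-fold subunit, fell by 0.32 on the log2 scale (SE 0.09, adjusted p = 0.002). Its coding transcripts held only 30.2 ± 4.34% of ORC4 TPM in DMSO. On them the fall of 0.34 passed narrowly (adjusted p = 0.0498) with overlapping groups. The other subunits ran from -0.10 (ORC2) to 0.11 (ORC5) and did not pass. Without the length offset both passed as lower, ORC2 at -0.39 (adjusted p = 1.28e-06) and ORC5 at -0.24 (0.00326). With transcripts under 1000 bases left out they were also lower, at -0.29 (adjusted p = 1.02e-04) and -0.35 (2.56e-06).

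The licensing factors and their inhibitor moved apart. CDT1 (chromosome 16, 88803789 to 88809258), which brings the helicase to origins, had normalized counts of 19485, 17930 and 19205 in DMSO and 24110, 22193 and 22792 in Chelator. No DMSO library reached a Chelator library. Its log2 fold change was 0.29 (SE 0.07, adjusted p = 1.58e-04), and that of CDC6, the loading ATPase, was 0.26 (adjusted p = 1.60e-04). GMNN, the CDT1 inhibitor, fell by 0.23 (adjusted p = 0.0164). The call for CDC6 was lost without the length offset (adjusted p = 0.0743) and after centring (0.193), and that for CDT1 after centring (0.129) and with GC content and length trends removed (0.059). The call for GMNN was lost with edgeR (adjusted p = 0.0588) and without DMSO replicate 1 (0.0905), DMSO replicate 3 (0.0889) or Chelator replicate 1 (0.0753).

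Of the 6 MCM helicase subunits, 4 fell and none rose. MCM6 (chromosome 2, 135839626 to 135876443) had normalized counts of 22565, 21072 and 22770 in DMSO and 19330, 17480 and 18265 in Chelator. The groups were apart, with a log2 fold change of -0.27 (SE 0.07, adjusted p = 5.70e-04). MCM4 fell by 0.26, MCM3 by 0.17 and MCM7 by 0.16. MCM2 at -0.04 and MCM5 at 0.15 did not pass, but MCM5 passed in both directions in the alternatives. It was higher with TMM scaling (adjusted p = 0.0338) and lower without the length offset (-0.27, adjusted p = 8.37e-05) and with short transcripts left out (-0.28, adjusted p = 8.97e-07). The calls for MCM3 and MCM7 were lost with TMM scaling (adjusted p = 0.0715 and 0.0921), with edgeR (0.101 and 0.125), and without DMSO replicate 1 (0.0652 and 0.0834), DMSO replicate 3 (0.0734 and 0.0788) or Chelator replicate 2 (0.0669 and 0.096). MCM7 was also lost without Chelator replicate 3 (0.0618). Per length, the 6 subunits were not even in DMSO, from 83.3 ± 2.79 TPM for MCM5 (SD, n = 3) to 428.3 ± 28.0 TPM for MCM7, the highest level in the set. MCM6 (89.4 ± 4.85 TPM) and MCM2 (95.7 ± 7.04 TPM) differed by less than the SD of MCM2.

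MCM8, a helicase of recombination, and MCM10, which joins the helicase to primase, did not pass. MCM10 had normalized counts of 7310, 7072 and 7622 in DMSO and 6593, 6948 and 7254 in Chelator. The groups overlapped, and the log2 fold change was -0.08 (SE 0.07, 95% interval -0.23 to 0.06).

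Of the 7 genes of helicase activation, 2 fell and none rose. DBF4 (chromosome 7, 87876216 to 87909553), the regulatory subunit of the CDC7 kinase, had normalized counts of 9328, 9209 and 9943 in DMSO and 7457, 6279 and 6570 in Chelator. Every Chelator library lay below every DMSO library, and the log2 fold change of -0.49 (SE 0.08, adjusted p = 5.34e-08) was the largest fall in the set when all transcripts were summed. GINS4 fell by 0.40 (adjusted p = 3.65e-08), but only by 0.13 on coding transcripts (adjusted p = 0.048) and by 0.15 with transcripts under 1000 bases left out (0.0426). CDC7 itself, GINS1, GINS2, GINS3 and CDC45 ran from -0.17 to -0.02 and did not pass. CDC7 passed as lower without DMSO replicate 3 (adjusted p = 0.0473) or Chelator replicate 1 (0.0257), and GINS2 without DMSO replicate 2 (0.0391). With transcripts under 1000 bases left out GINS1 passed as lower at -0.46 (adjusted p = 8.51e-11) and GINS2 at -0.26 (0.00198). Of 31-base words in the main DBF4 transcript, 42.6% also occur in other expressed genes, chiefly the pseudogene DBF4P1, so its reads are shared and its level is less certain.

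Of the 6 polymerase and primase subunits, 4 fell and none rose. POLE3 (chromosome 9, 113407235 to 113410675), a histone-fold subunit of DNA polymerase epsilon, had normalized counts of 12038, 10854 and 11920 in DMSO and 8658, 8748 and 9091 in Chelator. The gap between the groups was wider than the spread within either, and the log2 fold change was -0.39 (SE 0.07, adjusted p = 2.95e-07). PRIM1, the catalytic subunit of primase, fell by 0.37, POLD2, a polymerase delta subunit, by 0.29 and POLE2, another polymerase epsilon subunit, by 0.26. POLA2 (-0.12) and POLD3 (0.02) did not pass. POLE2, the least abundant member, sat at the threshold (adjusted p = 0.048), and it was lost with TMM scaling (0.109), with edgeR (0.116) and without DMSO replicate 1 (0.0741), DMSO replicate 2 (0.0581), DMSO replicate 3 (0.175), Chelator replicate 1 (0.11) or Chelator replicate 3 (0.208). With transcripts under 1000 bases left out it fell further, by 0.56 (adjusted p = 2.66e-07), which was then the largest fall in the set.

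The clamp fell, and the clamp loader was divided in sums over all transcripts. RFC2 (chromosome 7, 74231499 to 74254458), a small loader subunit, had normalized counts of 7934, 6328 and 7832 in DMSO and 9123, 9776 and 10779 in Chelator. The groups did not overlap, with a log2 fold change of 0.43 (SE 0.10, adjusted p = 1.33e-04), and this rise lay in a transcript annotated for nonsense-mediated decay, as described with the transcripts. The call was lost without the length offset (adjusted p = 0.122). RFC2 passed as lower on coding transcripts (-0.25, adjusted p = 8.67e-04) and with transcripts under 1000 bases left out (-0.28, adjusted p = 3.67e-04). PCNA, the sliding clamp, fell by 0.40 (SE 0.06, adjusted p = 3.40e-09), from 169.3 ± 10.9 TPM to 130.6 ± 3.11 TPM (SD, n = 3). RFC3 and RFC5 fell by 0.19 each, and RFC1, the large subunit, and RFC4 did not pass (0.07 and -0.01). RFC5 was lost with edgeR (adjusted p = 0.0629). RFC3 (adjusted p = 0.0488) was lost with TMM scaling (0.117), with edgeR (0.115) and without DMSO replicate 1 (0.123), DMSO replicate 3 (0.183), Chelator replicate 1 (0.0855), Chelator replicate 2 (0.123) or Chelator replicate 3 (0.0955).

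Of the 3 subunits of RPA, the 2 smaller ones rose. RPA3 (chromosome 7, 7636518 to 7718607) had normalized counts of 2603, 1897 and 2178 in DMSO and 2863, 2887 and 2830 in Chelator. The DMSO libraries were spread and the Chelator libraries tight, and the groups did not overlap. Its log2 fold change was 0.36 (SE 0.11, adjusted p = 0.0048), and that of RPA2 was 0.21 (adjusted p = 0.00466). RPA1, the large DNA-binding subunit, was at -0.12 and did not pass. After centring neither RPA3 (0.145) nor RPA2 (0.57) kept an adjusted p under 0.05, and RPA3 also lost it when transcripts under 1000 bases were left out (0.525). That cut removes RPA3-202 (847 bases), which held 77.8 ± 3.30% of RPA3 TPM in DMSO. On coding transcripts, RPA3-202 among them, RPA3 rose by 0.40 (adjusted p = 7.69e-04).

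The enzymes that finish Okazaki fragments went opposite ways. LIG1 (chromosome 19, 48115445 to 48170603), the ligase that seals nicks on the lagging strand, had normalized counts of 9667, 8704 and 8959 in DMSO and 12288, 12249 and 13422 in Chelator. The groups were far apart, with a log2 fold change of 0.47 (SE 0.07, adjusted p = 3.11e-09). The rise was smaller on coding transcripts (0.28, adjusted p = 4.08e-04) and with transcripts under 1000 bases left out (0.27, adjusted p = 1.53e-04). FEN1, the flap nuclease, fell by 0.19 (adjusted p = 0.0152), a call lost with edgeR (0.0697) and without DMSO replicate 3 (0.0695) or Chelator replicate 2 (0.057).

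Of the 7 genes of fork protection and chromatin, 3 fell and none rose. CLSPN (chromosome 1, 35720218 to 35769978), the checkpoint adaptor claspin, had normalized counts of 12702, 13146 and 13024 in DMSO and 10775, 9996 and 9939 in Chelator. The DMSO libraries lay close together and above all Chelator libraries, with a log2 fold change of -0.34 (SE 0.07, adjusted p = 2.82e-06). TIMELESS (0.02), TIPIN (0.01) and WDHD1 (-0.19), which ties the helicase to polymerase alpha, did not pass. WDHD1 passed as lower without Chelator replicate 1 (adjusted p = 3.35e-04). UHRF1 (chromosome 19, 4903080 to 4962154), which reads hemimethylated DNA and recruits the maintenance methyltransferase, had normalized counts of 12401, 11362 and 11655 in DMSO and 8227, 9005 and 9332 in Chelator. No Chelator library came near a DMSO library, and the log2 fold change was -0.42 (SE 0.08, adjusted p = 4.46e-07). CHAF1B, the middle subunit of the histone chaperone CAF-1, fell by 0.25, while CHAF1A, its large subunit, was at -0.01 and did not pass.

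**Figure D2:**
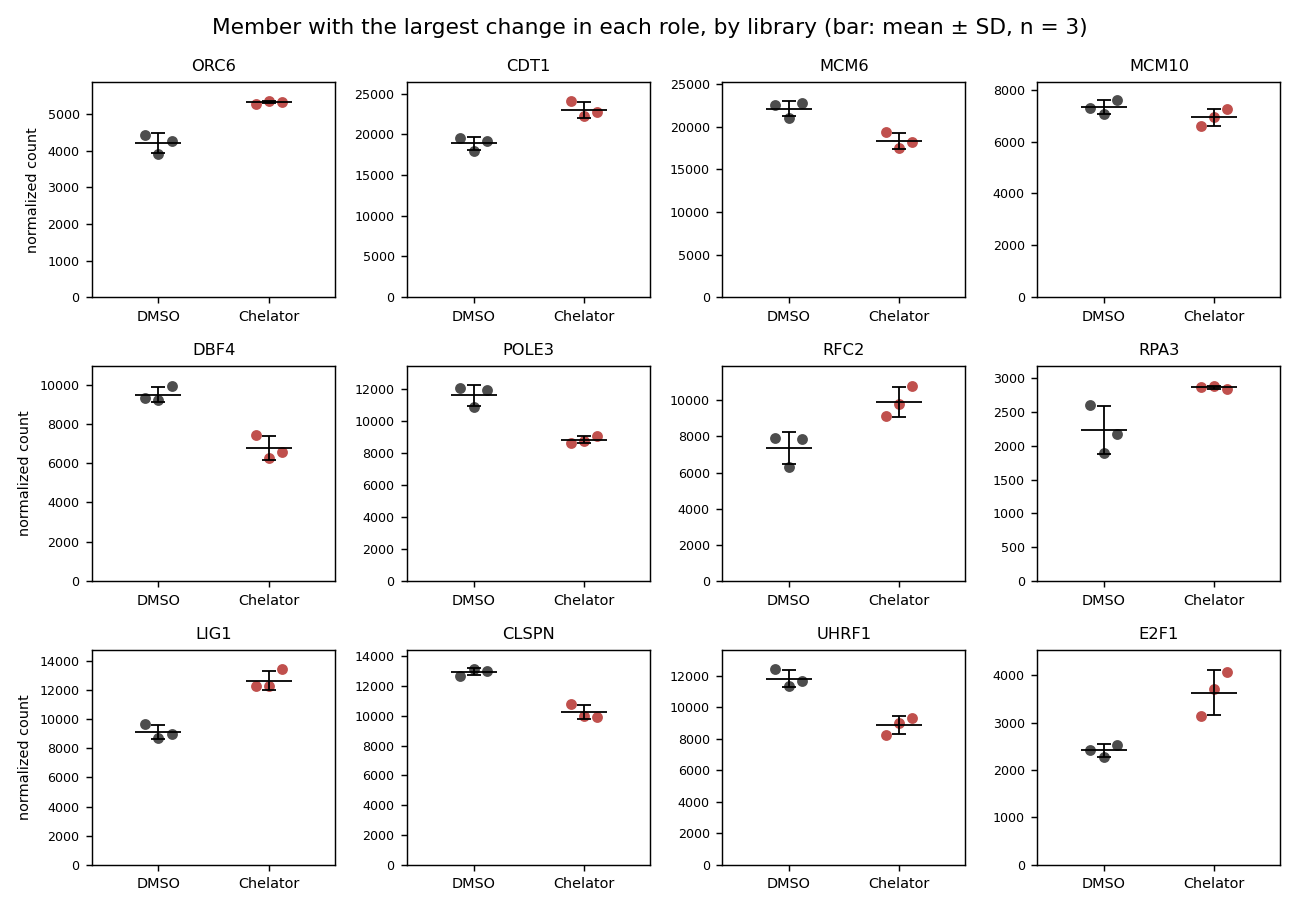
Normalized counts (y axis, from 0) in each library for the member with the largest absolute log2 fold change in each of the 12 roles. Points are libraries, and the bar is the mean ± SD of 3. Groups are apart in every panel except MCM10, where Chelator runs from 6593 to 7254 and DMSO from 7072 to 7622.

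The 24 members that did not pass had log2 fold changes between -0.19 and 0.15. Their 95% intervals ran from -0.37 at the lowest to 0.34 at the highest. In 5 of these 24 the groups did not overlap (ORC2, GINS2, GINS3, CDC7 and POLA2, all lower in Chelator).

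In all, 9 members share over 10% of the 31-base words of their main transcript with other expressed genes, and 31 share under 1%. The 9 are POLA2 (78.9%), MCM8 (68.4%), DBF4 (42.6%), UHRF1 (30.9%), PRIM1 (25.2%), ORC6 (24.6%), ORC4 (17.5%), CHAF1B (12%) and RFC2 (11.2%). For POLA2 and PRIM1 the main sharing gene overlaps the member on the same strand.

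By transcript, 10 members changed in which transcripts they used. Usage was tested with edgeR's diffSpliceDGE, with the call set at 0.05 for the adjusted Simes p and at a shift of more than 5 percentage points in how much of the gene's TPM a transcript holds. The Simes p belongs to the gene, over all its transcripts tested. Each adjusted p printed beside a transcript below is thus that of its gene and not of that transcript. Of 49 members tested 10 were called (20.4%), beside 9.22% of all 11938 genes tested and 11.6% of the abundant genes. Of these 10, 5 had also passed for expression.

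RFC2 had the largest shift, from its coding transcript to one annotated for nonsense-mediated decay. RFC2-201, the 11-exon coding transcript of 1685 bases, held 57.2%, 65.1% and 58.8% of RFC2 TPM in DMSO and 40.0%, 33.9% and 28.9% in Chelator. RFC2-207, a 9-exon decay transcript of 871 bases, held 21.7%, 13.4% and 21.4% in DMSO and 38.1%, 50.5% and 51.5% in Chelator (adjusted p = 2.00e-07, called without each library in turn). In estimated counts RFC2-207 had 935, 448 and 796 in DMSO and 2176, 3560 and 3320 in Chelator, against 5771, 5118 and 5091 and then 5168, 5333 and 4136 for RFC2-201. The decay transcript's counts were higher in every Chelator library. Those of the coding transcript overlapped between the groups, but estimated counts are not scaled for library depth. Scaled counts over all RFC2 coding transcripts were lower in Chelator without overlap, as given with the coding sums.

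MCM5 moved from a long coding transcript towards a short one. MCM5-201 (3458 bases) held 39.5%, 47.8% and 37.6% of MCM5 TPM in DMSO and 19.0%, 15.8% and 14.6% in Chelator (adjusted p = 2.95e-05, called without each library in turn). MCM5-203 (739 bases, 6 exons) held 10.1%, 3.46% and 14.8% in DMSO and 28.9%, 34.7% and 31.4% in Chelator, and MCM5-202 (2402 bases) stayed near 44.9% and 44.8% on average. In estimated counts MCM5-201 had 8550, 9014 and 7499 in DMSO and 4649, 4603 and 3700 in Chelator, with no overlap.

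Other members gained short transcripts annotated with no coding sequence, as a retained intron or for decay. MCM2-203 (557 bases, no defined coding sequence) went from at most 0.24% in DMSO to 6.41%, 16.5% and 16.8% in Chelator, where it had 193, 595 and 552 estimated counts, and MCM2-201 went from 97.9 ± 0.25% to 83.8 ± 6.46% (SD, n = 3; adjusted p = 2.36e-05). GINS1-206 (364 bases, a retained intron) went from 1.63%, 0% and 3.88% to 24.7%, 26.8% and 35.7% (adjusted p = 0.0121). These were large shares of TPM but few reads, with 105, 149 and 188 estimated counts of GINS1-206 in Chelator. LIG1-216 (570 bases) was listed at 0 in all DMSO libraries and held 6.83%, 18.8% and 11.9% in Chelator (adjusted p = 6.05e-05). There it had 122, 391 and 229 of the 13282, 13371 and 12077 estimated counts of LIG1. CHAF1A-204 (564 bases) was uneven in Chelator, at 2.33%, 18.9% and 18.8%, against at most 1.09% in DMSO (adjusted p = 9.37e-04). MCM4-204 (366 bases, annotated for decay) went from 5.62%, 0% and 0% to 13.6%, 12.8% and 20.0% (adjusted p = 2.96e-04). In Chelator it had 314, 345 and 476 of the 36836, 38137 and 32677 estimated counts of MCM4, again few reads.

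The remaining calls were of longer transcripts or smaller shifts. TIPIN-201 (1728 bases) fell from 56.5 ± 6.31% to 41.6 ± 3.91% of TIPIN TPM (SD, n = 3; adjusted p = 0.00702). CLSPN-201 (4769 bases) fell from 42.8 ± 4.18% to 30.4 ± 2.56% (adjusted p = 0.0131), with CLSPN-206 rising from 4.81 ± 1.22% to 13.3 ± 1.35%. POLD2-217 (571 bases, a retained intron) went from 9.68 ± 5.74% to 4.30 ± 3.54%, with overlapping groups (adjusted p of POLD2 = 0.0136). With transcripts under 1000 bases left out, and so without POLD2-217, the adjusted p of POLD2 was 0.0301 and it was not called. In 6 of the 10 called members the transcript with the largest shift was shorter than 1000 bases, as in 38.7% of all 1101 called genes, and the Chelator fragments were the shorter ones. The part of fragment length in these shifts was not tested. With transcripts of at least 1000 bases alone, an alternative added after the data were seen, 3 of 43 members tested were called (6.98%, beside 6.13% of all 10122 genes tested that way), namely MCM5, TIPIN and CLSPN. The members' share was then near that of all genes. Of the 10 calls, 4 (RFC2, MCM5, MCM4 and CHAF1A) held without each library in turn.

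**Figure D3:**
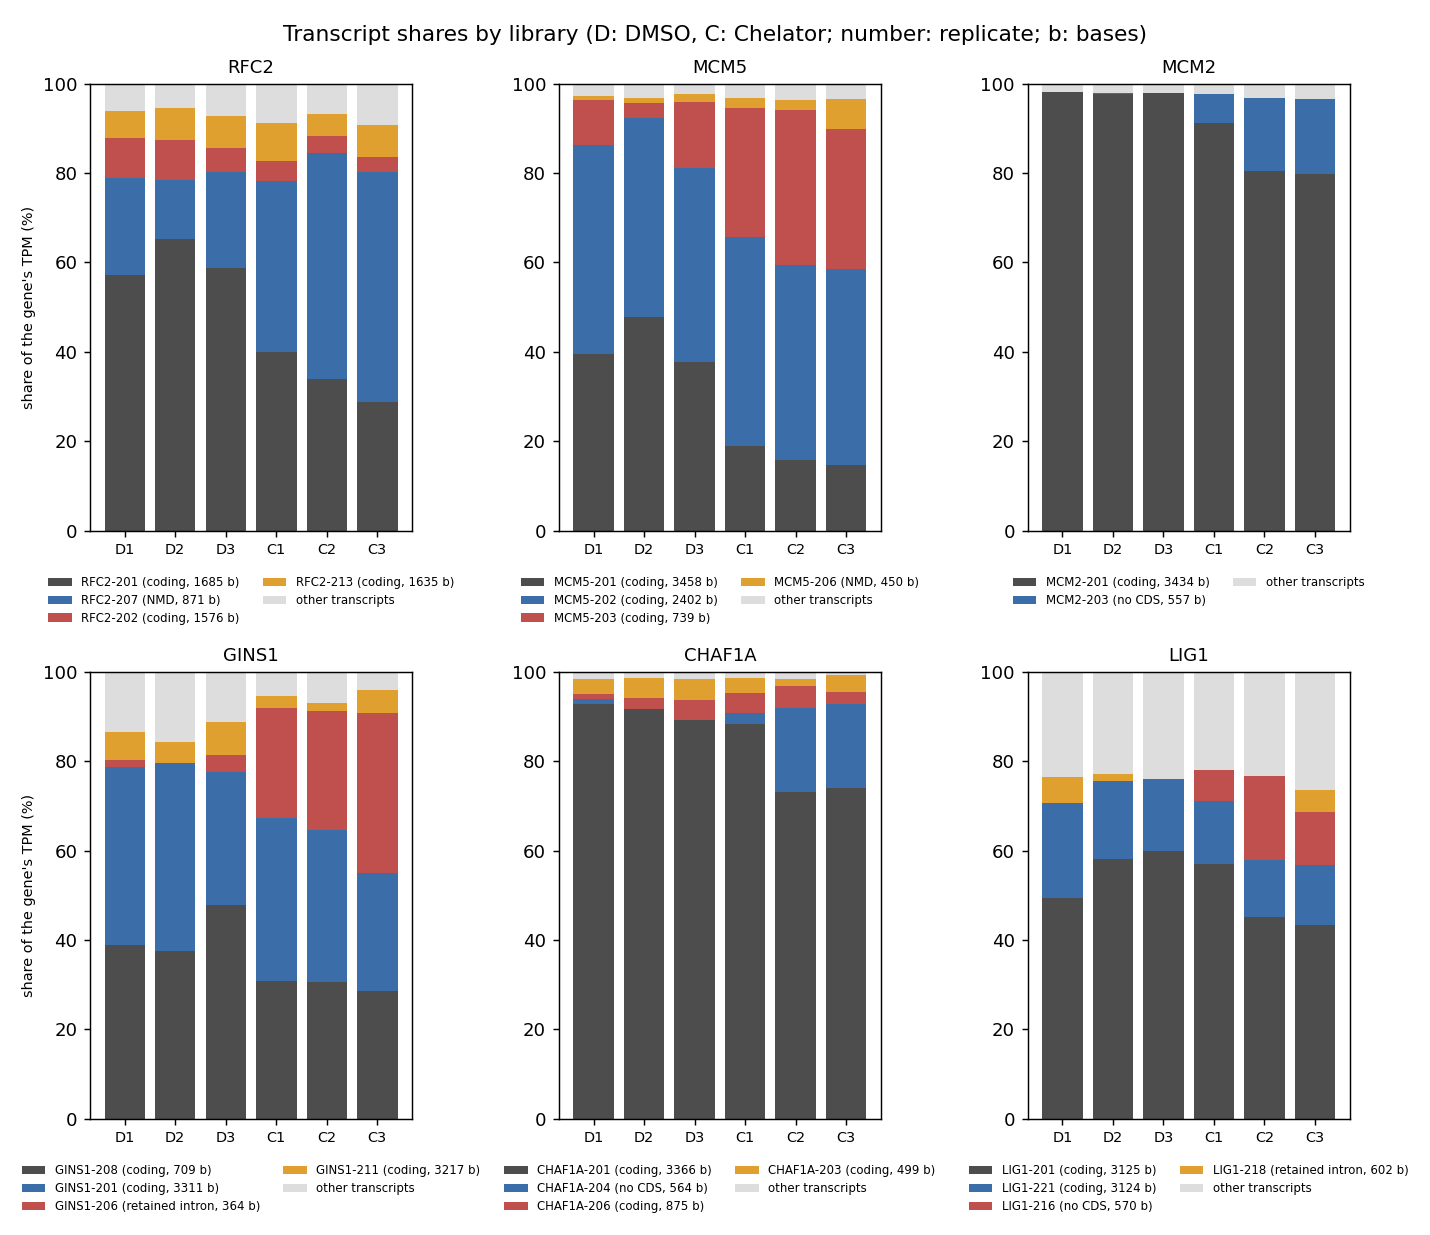
Share of the gene's TPM (y axis, %) held by each transcript in each library (D, DMSO; C, Chelator; the number is the replicate) for 6 members called for transcript usage. RFC2-207 lies between 13.4% and 21.7% in DMSO and between 38.1% and 51.5% in Chelator, and MCM5-203 between 3.46% and 14.8% in DMSO and between 28.9% and 34.7% in Chelator.

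Counting protein-coding transcripts alone, an alternative added after the data were seen, gave more risers and more fallers among members and moved RFC2 from the risers to the fallers. On these sums 10 members were higher and 23 lower (19.6% and 45.1%), beside 26.8% and 26.4% of all 15187 genes tested and 27.4% and 42.4% of those whose coding counts averaged 1000 or more, so the share that fell was again near that of abundant genes. The median log2 fold change of the members was -0.12, beside 0.041 over all genes. RFC2 had coding normalized counts of 7243, 6689 and 7113 in DMSO and 6324, 5651 and 5754 in Chelator. It thus passed in opposite directions in both sums, with -0.25 (SE 0.07, adjusted p = 8.67e-04) in the coding sum.

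A group of 8 members passed in the coding sum alone. ORC2 (-0.40), GINS1 (-0.42), MCM2 (-0.21), WDHD1 (-0.18) and CHAF1A (-0.17) fell, and CDC45 (0.22), ORC3 (0.18) and MCM5 (0.15) rose. MCM5 passed narrowly (adjusted p = 0.0482) with overlapping groups, and it was lower (-0.28) when transcripts under 1000 bases were left out. ORC2 coding normalized counts were 3686, 3927 and 4021 in DMSO and 2964, 2905 and 2961 in Chelator, and those of GINS1 were 4248, 4176 and 4845 and then 3151, 3437 and 3305. Both groups of values were well apart, where the sums over all transcripts had overlapped for GINS1. ORC6 rose further, by 0.87 (SE 0.13, adjusted p = 5.09e-10), with coding counts of 1047, 853 and 904 in DMSO and 1442, 1781 and 1900 in Chelator. Its coding transcript ORC6-201 held 22.2 ± 1.51% of ORC6 TPM in DMSO and 30.6 ± 4.01% in Chelator (SD, n = 3), the rest being mostly retained introns. ORC6 thus had the largest rise in the coding sum, ahead of E2F1 (0.65). With transcripts under 1000 bases left out, MCM2 (-0.21), CHAF1A (-0.20) and WDHD1 (-0.16, adjusted p = 0.0389) passed as lower too, as did ORC2 and GINS1. CDC45 (0.12, adjusted p = 0.073) and ORC3 (0.13, adjusted p = 0.133) did not pass there. POLE2 and RFC3 passed in the sum over all transcripts but not in the coding sum.

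DBF4 could not be read this way. Its transcripts annotated as coding held 1.35 ± 0.50% of DBF4 TPM in DMSO and 0.76 ± 0.47% in Chelator, and its largest shares lay in DBF4-204, a transcript of 2342 bases annotated for decay (33.1 ± 2.16% in DMSO and 35.2 ± 2.53% in Chelator), and in the retained intron DBF4-205 (22.1 ± 2.77% and 27.6 ± 1.41%). Its coding log2 fold change of -1.23 (SE 0.45, adjusted p = 0.0125) therefore rested on 68 to 436 normalized counts. With transcripts of at least 1000 bases alone DBF4 stood at -0.50 (adjusted p = 2.74e-12).

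Over the set, the coding share was lower in Chelator without overlap between groups in 18 of the 51 members, where the background was 25.4% of abundant genes. It was higher in 6 of the 51, where the background was 7.17%. These are shares of TPM, in which short transcripts with few reads can hold much, and the part of fragment length was not tested. The median coding share over members was 94.0%, 94.0% and 94.3% in DMSO and 93.3%, 89.9% and 89.9% in Chelator. Chelator replicate 1 thus lay between the DMSO libraries and the other Chelator libraries.

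**Figure D4:**
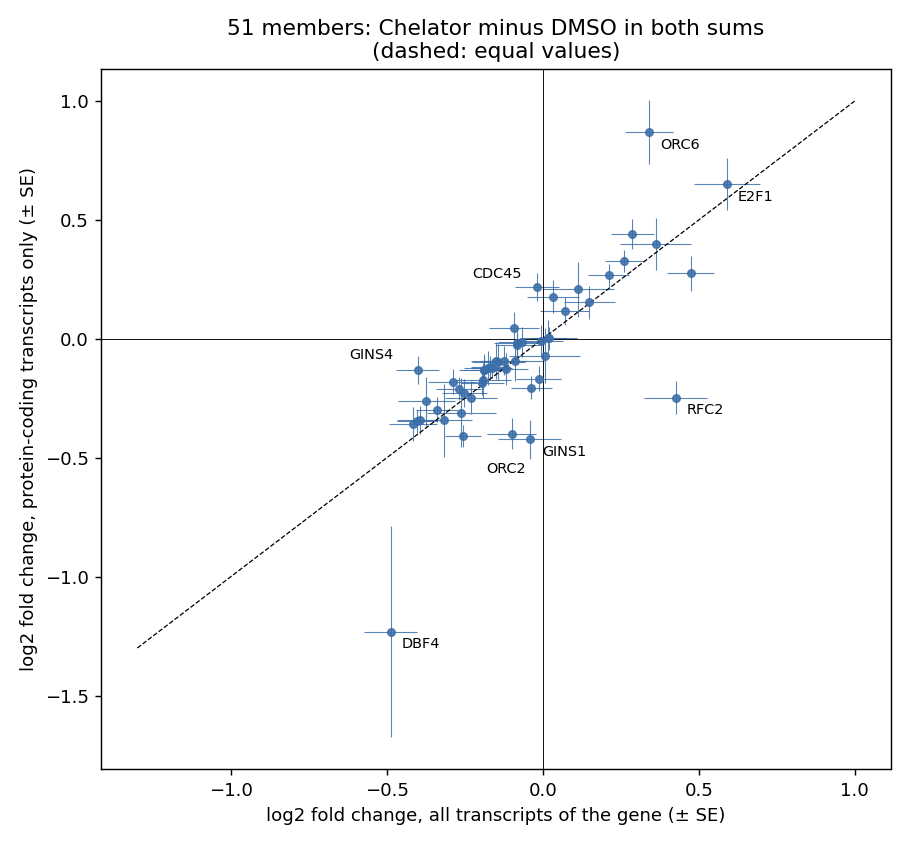
Log2 fold change (Chelator minus DMSO, ± SE) of each member summed over all its transcripts (x axis) against that over its protein-coding transcripts alone (y axis). Most points follow the dashed line of equal values, and the 7 members that moved by more than 0.2 are named with E2F1, among them RFC2 at 0.43 and -0.25 and ORC6 at 0.34 and 0.87.

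Ratios between partner genes within a library do not depend on the scaling between libraries. The pairs were chosen after the values were seen, so they are given as descriptions with no test. The CDT1 to GMNN ratio of TPM was 0.70, 0.74 and 0.71 in DMSO and 1.14, 0.98 and 0.97 in Chelator. The LIG1 to FEN1 ratio was 0.38, 0.36 and 0.35 in DMSO and 0.57, 0.57 and 0.59 in Chelator. All Chelator libraries were above all DMSO libraries in both, also on coding transcripts alone, where the means were 0.68 and 1.09 for CDT1 to GMNN and 0.28 and 0.38 for LIG1 to FEN1. The LIG1 to PCNA ratio went from 0.25 ± 0.01 to 0.47 ± 0.02 (SD, n = 3) and the E2F1 to E2F2 ratio from 0.91 ± 0.08 to 1.46 ± 0.27. The DBF4 to CDC7 ratio went down, from 4.57, 4.26 and 5.04 to 3.91, 3.55 and 3.66. On coding transcripts alone, which hold little of the DBF4 level, the DBF4 to CDC7 groups overlapped (0.041 to 0.097 in DMSO and 0.016 to 0.054 in Chelator).

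**Figure D5:**
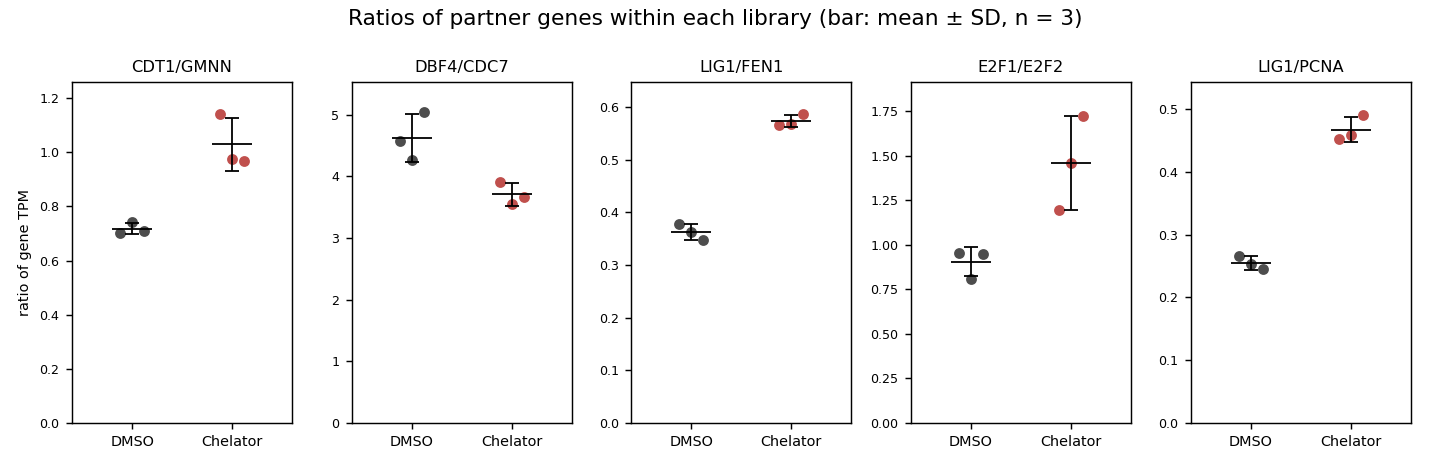
Ratio of gene TPM within each library (y axis, from 0) for 5 pairs of partner genes, with points for libraries and a bar for the mean ± SD of 3. Groups are apart in all 5 panels, with CDT1/GMNN at 0.70 to 0.74 in DMSO and 0.97 to 1.14 in Chelator, and DBF4/CDC7 the only pair that is lower in Chelator.

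The 4 lists of related genes outside the set were read by counts, with the largest changes named. For scale, 24.8% of the abundant genes were higher and 38.2% lower, with a median of -0.09. Of 27 other origin and fork genes, 2 rose and 8 fell, with a median log2 fold change of -0.08. POLD4, the smallest polymerase delta subunit, rose by 1.70 (SE 0.09, adjusted p = 6.11e-82) from 15.8 to 52.2 TPM on average, and CHTF8 rose by 0.37, while DSCC1, its partner in an alternative clamp loader, fell by 0.54 and MCMBP, an MCM-binding protein, by 0.41. POLD4 was thus the only one of these 78 replication genes past the 2-fold limit. Of 10 replication checkpoint genes, 1 rose and 7 fell, with a median of -0.37. ATR, the kinase that answers stalled forks, fell by 0.84 (SE 0.08, adjusted p = 1.18e-22), its partner ATRIP by 0.86 and its activator ETAA1 by 0.60, while WEE1, which holds back CDK1, rose by 0.51.

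Of 18 E2F, Rb and DREAM regulators, 4 rose and 4 fell, with a median of -0.13. LIN37 (0.52) and CCNE2 (0.40) rose, and CCNE1 (-0.42) and TFDP2 (-0.41) fell, so the 2 cyclin E genes went opposite ways. Of 8 genes of nucleotide supply, 2 rose and 3 fell, with a median of -0.10. SAMHD1, which degrades deoxynucleotides, fell by 1.40 (SE 0.09, adjusted p = 4.51e-48), from 22.4 to 8.67 TPM on average. RRM2, the iron-containing subunit of ribonucleotide reductase, rose by 0.28 and TK1, thymidine kinase, by 0.34.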

How the data were processed

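RNA from 6 K562 libraries was quantified by the authors with salmon 1.10.2. The deposited estimated counts, which need not be whole, and the deposited TPM are given per transcript, and the deposited lengths and effective lengths are in bases. The labels name hg38 as the genome build, and the transcript annotation and salmon's bias options are not given in the sources used here. Groups follow the labels, and no per-sample column was left unused. Of 252045 transcripts, 251142 matched GENCODE release 44 (GRCh38) in version and length and 470 by identifier with another version. The 433 others were left out of gene sums.

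Estimated counts were summed per gene and rounded. Genes with a total above 10 were tested with DESeq2 1.42.0 (Wald test, Benjamini-Hochberg adjustment over all genes), as in the study's methods. The median-ratio size factors and the average transcript length offset were chosen here. Normalized counts are divided by these factors. Transcript usage was tested with edgeR 4.0.16 (diffSpliceDGE) on transcripts that reached 10 counts in 3 or more libraries. The tests were checked on simulated data. Alternatives were TMM scaling (a trimmed mean of log ratios), edgeR's quasi-likelihood test, no offset, no filter, centring, GC content and length trends removed, a replicate block, a test against a log2 fold change of 1, limma 3.58.1 for usage, and each library left out in turn. Depth was 78615500 to 101094957 estimated counts per library.

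The members and lists were chosen with earlier results of these data known. All members are described by role, with values in every library for members past the threshold with an absolute log2 fold change above 0.5 and for the largest change in each role. In other lists up to 4 genes past the threshold with the largest changes are named. A gene that this rule would name is not reported here. Promoters are from RefSeq (GRCh38.p14). RefSeq windows of MCM4, MCM5, GINS4, POLD3, RPA2, RPA3 and E2F8 were not used here.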

Additional observations from a re-analysis of the deposited data

How the results depend on the processing

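The 27 members past the threshold kept their direction in every alternative that summed all transcripts and without each library in turn, and 15 of them kept the call as well in 9 alternatives and without each library. The test against a log2 fold change of 1 is not among these 9, and it called 0 members. RFC2 turned below 0 in both sums over fewer transcripts. The median log2 fold change of the members, -0.100, stayed below 0 in all alternatives. It was -0.055 with TMM scaling and with edgeR, -0.167 without the length offset, -0.256 after centring, -0.122 with protein-coding transcripts alone, -0.155 with transcripts of at least 1000 bases alone, and -0.121 to -0.094 with a library left out. Of risers and fallers there were 9 and 15 with TMM scaling, 8 and 12 with edgeR, 4 and 34 after centring, 6 and 27 with transcripts of at least 1000 bases alone, and 8 and 14 to 19 with a library left out. Only protein-coding transcripts gave a member past 2-fold (1, DBF4). Testing all genes against a log2 fold change of 1 cut the genes called from 2646 to 674. Usage calls among members were 17 with limma, 3 with transcripts of at least 1000 bases alone, 9 with at least 50 counts per transcript and 6 to 10 with a library left out. The cause of these differences was not tested.

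The replicate numbers did not pair the libraries by the check used (correlations of same-numbered libraries of -0.07, 0.13 and 0.1), so they are read as names. With a replicate block 8 members were higher and 16 lower, 0 were past 2-fold, 2345 genes were called in all, and 9 members were called for usage.

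Values that changed sign were under 0.2 in size in the reported fit, except for RFC2. With TMM scaling they were MCM2 0.008, CDC45 0.027, GINS1 0.003, RFC4 0.039 and CHAF1A 0.032. With edgeR they were MCM2 0.008, CDC45 0.027, GINS1 0.003, RFC4 0.039 and CHAF1A 0.032. With no length offset they were ORC5 -0.24, MCM5 -0.27, CDC45 0.074, POLD3 -0.016, TIMELESS -0.043 and TIPIN -0.16. With centring they were ORC3 -0.12, ORC5 -0.044, MCM5 -0.008, POLD3 -0.14, RFC1 -0.087, TIMELESS -0.14 and TIPIN -0.15. With GC content and length trends removed they were ORC2 0.017, MCM8 0.085 and TIPIN -0.003. With protein-coding transcripts alone they were CDC45 0.22, RFC2 -0.25, TIPIN -0.070 and E2F2 0.045. With transcripts of at least 1000 bases alone they were ORC5 -0.35, MCM5 -0.28, CDC45 0.12, RFC2 -0.28, TIPIN -0.23 and E2F2 0.024. With a library left out, the ranges of members that changed sign were ORC3 -0.032 to 0.076, ORC5 -0.019 to 0.20, CDC45 -0.046 to 0.030, GINS1 -0.11 to 0.046, POLD3 -0.047 to 0.064, RFC4 -0.020 to 0.013, TIPIN -0.10 to 0.10 and CHAF1A -0.055 to 0.036.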

Other observations

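Genes of G2 and mitosis, the phases after replication, moved in both directions. Of 12 listed genes, 2 rose and 4 fell at an adjusted p under 0.05 (DESeq2), with a median log2 fold change of -0.07. Among the abundant genes 24.8% were higher and 38.2% lower, with a median of -0.09. CENPF, a kinetochore protein, fell by 0.66 (SE 0.09, adjusted p = 4.65e-13), KIF11, the spindle motor, by 0.40 and CCNA2, cyclin A, by 0.38, while CCNB2, a mitotic cyclin, rose by 0.30 (adjusted p = 4.86e-05). The groups did not overlap in any of these 4 genes.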
